A study of Rattus norvegicus with 12 samples.

Results

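Fatty acid oxidation was followed in rat vein before and after grafting through 36 genes, taken from 13903 genes that could be named on the array. The members were named by symbol as enzymes, carriers and regulators of the pathway, with earlier results of these data known, and each was read from 1 probe with 1 spot per array. RNA was measured on 12 single-colour arrays from male rats, with 4 times of 3 arrays each. Unoperated rats gave the vein of day 0. Grafts in which an external jugular vein bypassed the carotid artery were taken 7, 14 and 28 days after the operation. The labels give the tissue only as vein, and strain, age and the vein taken at day 0 are not given in the sources used here. They do not say whether an array held 1 animal or a pool, so the p-values speak only to the spread among arrays, which could be technical.

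Fatty acids are burned in a fixed order. A synthetase joins the acid to coenzyme A, the carnitine shuttle carries it through the inner mitochondrial membrane, and a repeated cycle of enzyme steps then clips off acetyl-CoA while electrons pass to the respiratory chain through the electron transfer flavoprotein. The nuclear receptor PPAR alpha and the coactivator PGC-1 alpha are known to switch on many of these genes together in liver, heart and muscle. Fat, heart and oxidative muscle are rich in the enzymes, and cells of the vessel wall use the pathway as well.

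Levels are log2 intensities minus the 75th percentile of the array, so a level of 0 lies at that percentile, and levels of different probes are not compared. A change is the log2 difference of 2 days with its SE, fitted with limma (n = 3 arrays per day). A call means an adjusted p (Benjamini-Hochberg over all 21063 probes tested) under 0.05. Of the 36 members 35 were tested, and 32 were well above background on all 12 arrays. Ppargc1a, which encodes PGC-1 alpha, was too dim to be tested. Between 71.9% and 82.6% of gene spots were well above background on an array. Day 0 replicate 3 and day 7 replicate 3 carried 460 and 393 non-uniform spots, against 2 to 11 on the other arrays. The arrays fell into 4 scans: scan 1 held 2 arrays of day 14 and 2 of day 28, scan 2 held 3 of day 7 and 1 of day 14, scan 3 held 2 of day 0 and 1 of day 28, and scan 4 held 1 of day 0.

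Many members were lower in the grafts than in unoperated vein, while 3 synthetases and Ucp2 were higher. At day 7, 17 of the 35 tested members were called lower, against 15.4% of all probes, and 4 were called higher, against 17.7%. At day 14, 14 were called lower (17.4% of all probes) and 4 higher (20.1%). At day 28, 12 were called lower (16.5%) and 4 higher (17.4%). The median change of the members was -0.60 at day 7, -0.40 at day 14 and -0.26 at day 28, beside medians of -0.03, 0.02 and 0.01 over all probes. The 3 comparisons share the same day 0 arrays.

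The arrays of the graft lay wholly below those of day 0 for 19 members at day 7 (20.1% of all probes), 18 at day 14 (25.2%) and 16 at day 28 (24.4%). They lay wholly above for 6 members at day 7 (19.8% of all probes), 6 at day 14 (25.9%) and 7 at day 28 (23.9%). Acsl1, Fabp3, Cpt1a, Acadm, Hadhb, Acaa2, Decr1, Ech1, Etfa, Ehhadh, Ppara and Pdk4 were called lower at all 3 days, and Acsl3, Acsl4, Acsl5 and Ucp2 were called higher at all 3. A further 5 members were called lower at 1 or 2 days and 14 at none. An F test over the 4 days called 17 of the 35 members, against 40.5% of all probes.

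Scan and day were entangled, and the calls depended on how that was treated. With scan as a fixed block, all 21, 18 and 16 members called at days 7, 14 and 28 kept their direction, but only 0, 1 and 3 of them stayed called: Acadm at day 14, and Acaa2, Decr1 and Ech1 at day 28. The loss was general, as that fit called 0.261%, 4.91% and 6.47% of all probes. With scan as a random block 19, 17 and 16 stayed called. No scan held day 0 arrays together with day 7 or day 14 arrays. Scan 3 held day 28 and day 0 arrays, and within it all 16 members called at day 28 differed in the same direction (1 array against 2, with no test). For these members the day 28 and day 0 arrays did not overlap. The direction within the scan was therefore fixed beforehand and is no check on scan. With scan as a fixed block the change at day 28 is this same difference within scan 3, so the direction kept there is no check either. At days 14 and 7 that fit reaches day 0 only through the 1 day 28 array of scan 3. Day 7 is reached also through the 1 day 14 array of scan 2.

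In the first step, activation to acyl-CoA, 1 enzyme fell and 3 rose. Acsl1 encodes the long-chain acyl-CoA synthetase that dominates in fat, heart and liver. Its level was -0.27, -0.12 and 0.89 at day 0, -1.54, -1.63 and -0.42 at day 7, -1.71, -1.65 and -1.59 at day 14 and -1.82, -1.87 and -1.71 at day 28. All 9 graft arrays lay below all 3 day 0 arrays. It fell by 1.36 ± 0.36 at day 7, 1.82 ± 0.36 at day 14 and 1.96 ± 0.36 at day 28 (limma, adjusted p = 0.0149, 0.00295 and 0.00259). The day 7 call was lost without day 7 replicate 1 (adjusted p = 0.0609) and without day 7 replicate 2 (adjusted p = 0.0571).

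Of the other synthetases of the family, 3 of 4 were called higher at each graft day. Of all probes 17.7%, 20.1% and 17.4% were called higher at days 7, 14 and 28. The 4 called higher among all 35 tested members were below that share at each day. Acsl3, an isoform of the endoplasmic reticulum and lipid droplets, stood at -1.15, -1.36 and -1.69 at day 0, -0.38, -0.32 and 0.10 at day 7, -0.12, -0.11 and 0.06 at day 14 and 0.02, 0.06 and -0.11 at day 28. The day 0 arrays lay below every graft array. It rose by 1.20 ± 0.19 at day 7, 1.34 ± 0.19 at day 14 and 1.39 ± 0.19 at day 28 (adjusted p = 0.00119, 0.000485 and 0.000673), which is 2.30-fold, 2.54-fold and 2.62-fold. Acsl4, which prefers arachidonic acid, read 0.80, 0.39 and 0.70 at day 0, 1.34, 1.36 and 1.87 at day 7, 1.57 and 1.74 at day 14 and 1.51, 1.23 and 1.82 at day 28, with day 14 replicate 2 left out as an outlier spot. Every measured graft array was above every day 0 array, and the rises were 0.90 ± 0.23 at day 7, 1.03 ± 0.25 at day 14 and 0.89 ± 0.23 at day 28 (adjusted p = 0.0143, 0.0111 and 0.0149). With the authors' deposited values, which keep the left-out spot, its changes were 0.86 at day 7, 0.19 at day 14 and 0.85 at day 28, and no day was called (limma, adjusted p = 0.277, 0.811 and 0.273). The day 14 call was also lost without day 14 replicate 3 (adjusted p = 0.0728), and the day 28 call without day 28 replicate 1 or 3 (adjusted p = 0.051 and 0.0543).

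Acsl5, an isoform of mitochondria and endoplasmic reticulum, measured 2.87, 2.19 and 2.31 at day 0, 3.02, 3.17 and 3.67 at day 7, 3.11, 3.14 and 3.46 at day 14 and 3.19, 3.18 and 3.29 at day 28. The lowest graft array was only slightly above the highest day 0 array. Its rises of 0.83 ± 0.23 at day 7, 0.78 ± 0.23 at day 14 and 0.77 ± 0.23 at day 28 were called (adjusted p = 0.0196, 0.0225 and 0.0278). All 3 calls were lost without day 0 replicate 2 (adjusted p = 0.0631, 0.0681 and 0.0834), and those of days 14 and 28 also without day 0 replicate 3 (adjusted p = 0.054 and 0.0622). The day 7 call was lost without day 7 replicate 3 (adjusted p = 0.0534), the day 14 call without day 14 replicate 3 (adjusted p = 0.0877), and the day 28 call without any 1 of the 3 day 28 arrays (adjusted p up to 0.0755). Acsl6, the isoform of brain, was dim and scattered, at -6.63, -4.51 and -4.99 at day 0, -2.04, -1.58 and -4.30 at day 7, -4.59, -7.17 and -4.25 at day 14 and -2.59, -4.47 and -1.64 at day 28. It overlapped day 0 at day 14 and was called at no day (2.73 ± 1.02 at day 7, 0.04 ± 1.02 at day 14 and 2.47 ± 1.02 at day 28).

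Uptake and cytosolic carriage showed 1 fall and 1 gene that did not pass. Fabp3, the heart-type protein that carries fatty acids through the cytosol, was at 1.41, 3.02 and 2.67 at day 0, 0.08, 0.29 and -0.49 at day 7, -0.49, -0.31 and -0.39 at day 14 and -0.60, -0.89 and -0.41 at day 28. The highest graft array lay more than 1 log2 unit below the lowest day 0 array. It fell by 2.40 ± 0.37 at day 7, 2.76 ± 0.37 at day 14 and 3.00 ± 0.37 at day 28, that is 5.29-fold, 6.78-fold and 8.0-fold (adjusted p = 0.000961, 0.000326 and 0.000352). Cd36, the fatty acid translocase and scavenger receptor, ranged from 1.91 to 2.75 at day 0 and from 1.98 to 2.91 over the graft arrays. Its changes of -0.21 ± 0.22 at day 7, 0.38 ± 0.22 at day 14 and -0.25 ± 0.22 at day 28 were not called.

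In the carnitine shuttle the outer enzyme moved and the inner carriers did not pass the test. Cpt1a, the liver-type carnitine palmitoyltransferase of the outer membrane and the known control point of the pathway, was 2.25, 2.98 and 3.05 at day 0, 1.39, 1.43 and 1.60 at day 7, 1.29, 1.33 and 1.40 at day 14 and 1.65, 1.67 and 1.74 at day 28. Graft arrays lay together and below the 3 day 0 arrays. The falls were 1.29 ± 0.21 at day 7, 1.42 ± 0.21 at day 14 and 1.08 ± 0.21 at day 28 (adjusted p = 0.00126, 0.00057 and 0.0037). Cpt1b, the muscle-type isoform, was -1.12, -1.21 and -1.64 at day 0, -2.19, -2.16 and -2.63 at day 7, -1.72, -2.13 and -1.45 at day 14 and -1.17, -1.84 and -0.49 at day 28. It lay below day 0 at day 7 only and was called there (-1.0 ± 0.33, adjusted p = 0.0405), a call lost under 14 of 25 alternatives, and its changes at days 14 and 28 were -0.44 ± 0.33 and 0.15 ± 0.33.

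Cpt2, the inner membrane transferase, Slc25a20, the carnitine and acylcarnitine translocase, and Crat, which makes acetylcarnitine, were called at no day. Their changes ran from -0.37 to 0.31. The shuttle held 2 called members of 5 at day 7 and 1 of 5 at days 14 and 28, beside 33.1%, 37.5% and 33.9% of all probes called in either direction.

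Of the 4 acyl-CoA dehydrogenases, which take the first pair of electrons at different chain lengths, the medium-chain enzyme fell furthest. Acadm stood at 2.14, 2.70 and 3.00 at day 0, 0.74, 0.86 and 0.73 at day 7, 0.78, 0.53 and 0.89 at day 14 and 1.38, 1.51 and 1.33 at day 28. Days 7 and 14 lay lowest and day 28 lay between them and day 0. It fell by 1.83 ± 0.22 at day 7, 1.88 ± 0.22 at day 14 and 1.20 ± 0.22 at day 28 (adjusted p = 0.000207, 0.000132 and 0.00251), or 3.57-fold, 3.69-fold and 2.30-fold. Acadl, the long-chain enzyme, was 2.37, 3.02 and 2.94 at day 0, 2.00, 1.92 and 2.30 at day 7, 2.18, 2.14 and 2.24 at day 14 and 2.24, 2.27 and 2.29 at day 28, below day 0 on all graft arrays. It was called at day 7 (-0.70 ± 0.20, adjusted p = 0.0194) and at day 14 (-0.59 ± 0.20, adjusted p = 0.0369), and these calls were lost under 7 and 17 of 25 alternatives. The day 7 call was lost without day 0 replicate 2, day 7 replicate 1 or day 7 replicate 2 (adjusted p = 0.0603, 0.0693 and 0.068). Acadvl, for very long chains, and Acads, for short chains, were called at no day, with changes of -0.81 ± 0.31 at day 7, -0.40 ± 0.31 at day 14 and -0.28 ± 0.31 at day 28 for Acadvl and -0.03 ± 0.32 at day 7, 0.58 ± 0.32 at day 14 and 0.51 ± 0.32 at day 28 for Acads.

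The next steps hydrate the chain, oxidise it again and cut it. Hadhb encodes the beta subunit of the mitochondrial trifunctional protein, the thiolase of long chains, and Hadha encodes its alpha subunit, with the hydratase and dehydrogenase. Hadhb was 3.37, 3.97 and 3.90 at day 0, 2.22, 2.38 and 2.31 at day 7, 2.65, 2.58 and 2.78 at day 14 and 2.64, 2.63 and 2.74 at day 28. All graft arrays lay below day 0, and it fell by 1.44 ± 0.18 at day 7, 1.08 ± 0.18 at day 14 and 1.08 ± 0.18 at day 28 (adjusted p = 0.000294, 0.00127 and 0.0018). Hadha was 1.20, 1.58 and 0.66 at day 0, 1.11, 0.81 and 1.09 at day 7, 1.42, 1.5 and 1.58 at day 14 and 1.04, 0.97 and 1.08 at day 28. Its arrays overlapped day 0 at every graft day, and its changes of -0.14 ± 0.22 at day 7, 0.35 ± 0.22 at day 14 and -0.12 ± 0.22 at day 28 were not called.

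The 2 subunit genes lie head to head. In RefSeq (GRCr8) their starts are 300 bases apart on chromosome 6, and the promoter windows of both cover the same 200 bases, shown because they stand upstream of a gene that fell and of one that was not called. Capitals mark GGGCGG, a GC box, read on the other strand.
Hadha and Hadhb shared upstream stretch, chr6:31907551-31907750 (+): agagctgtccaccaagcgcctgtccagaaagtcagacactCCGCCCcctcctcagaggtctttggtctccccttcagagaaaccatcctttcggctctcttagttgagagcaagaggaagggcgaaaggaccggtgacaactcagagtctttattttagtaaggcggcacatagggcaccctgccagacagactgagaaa

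Of the 4 other enzymes of these steps, Acaa2 was called at every day, Hadh and Acat1 at day 7 only, and Echs1 at none. Acaa2, the mitochondrial 3-ketoacyl-CoA thiolase, was 2.81, 3.51 and 3.17 at day 0, 1.73, 1.76 and 1.54 at day 7, 2.04, 1.77 and 2.28 at day 14 and 1.73, 1.88 and 1.58 at day 28. The groups were apart at every day, and it fell by 1.49 ± 0.21 at day 7, 1.13 ± 0.21 at day 14 and 1.43 ± 0.21 at day 28 (adjusted p = 0.000616, 0.00231 and 0.00094). Its day 28 call held under all 25 alternatives. Hadh, the short-chain hydroxyacyl-CoA dehydrogenase, was 1.79, 1.95 and 1.88 at day 0, 1.31, 1.44 and 1.41 at day 7, 1.37, 1.47 and 1.46 at day 14 and 1.53, 1.78 and 1.22 at day 28, and its day 7 fall of 0.49 ± 0.17 (adjusted p = 0.0484) was lost under 20 of 25 alternatives. Acat1, which splits acetoacetyl-CoA, was 2.28, 2.81 and 2.36 at day 0, 1.90, 1.90 and 1.61 at day 7, 2.07, 1.94 and 2.28 at day 14 and 2.16, 2.26 and 2.09 at day 28. Its day 7 change was -0.68 ± 0.19 (adjusted p = 0.0192), a call lost without day 0 replicate 2 (adjusted p = 0.0568). Echs1, the short-chain hydratase, changed by -0.38 ± 0.20 at day 7, -0.49 ± 0.20 at day 14 and -0.26 ± 0.20 at day 28 and was not called.

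Auxiliary enzymes prepare unsaturated chains for the spiral. Called lower at days 7, 14 and 28 were 3, 3 and 2 of the 4, beside 15.4%, 17.4% and 16.5% of all probes. Ech1, a dienoyl-CoA isomerase, was 3.34, 4.46 and 4.34 at day 0, 2.10, 2.10 and 2.39 at day 7, 1.99, 2.04 and 2.15 at day 14 and 2.05, 2.25 and 1.82 at day 28. All 9 graft arrays lay well below the lowest day 0 array. It fell by 1.85 ± 0.27 at day 7, 1.98 ± 0.27 at day 14 and 2.01 ± 0.27 at day 28, or 3.60-fold, 3.96-fold and 4.02-fold (adjusted p = 0.000754, 0.000378 and 0.000608). Decr1, the dienoyl-CoA reductase, was 2.25, 2.36 and 2.46 at day 0, 1.67, 1.77 and 1.83 at day 7, 1.61, 1.45 and 1.68 at day 14 and 1.48, 1.65 and 1.25 at day 28, again with no overlap, and fell by 0.60 ± 0.16 at day 7, 0.78 ± 0.16 at day 14 and 0.89 ± 0.16 at day 28 (adjusted p = 0.0167, 0.00394 and 0.00251). The day 7 call of Decr1 was lost without day 7 replicate 1 (adjusted p = 0.0683). The day 28 calls of Ech1 and Decr1 held under all 25 alternatives.

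Eci2, an enoyl-CoA isomerase of mitochondria and peroxisomes, was 1.73, 2.55 and 2.27 at day 0, 1.18, 1.35 and 0.76 at day 7, 1.38, 1.12 and 1.56 at day 14 and 1.58, 1.66 and 1.53 at day 28. It was called at day 7 (-1.09 ± 0.24, adjusted p = 0.00662) and day 14 (-0.83 ± 0.24, adjusted p = 0.0214), and its day 28 change was -0.59 ± 0.24 (adjusted p = 0.0843). The day 14 call of Eci2 was lost without day 0 replicate 2, day 14 replicate 1 or day 14 replicate 2 (adjusted p = 0.0668, 0.0584 and 0.0771). Eci1, the mitochondrial isomerase, changed by -0.47 ± 0.28 at day 7, -0.24 ± 0.28 at day 14 and -0.13 ± 0.28 at day 28 and was not called.

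Electrons from the dehydrogenases pass through a flavoprotein of alpha and beta subunits. Etfa, the alpha subunit, was 2.33, 2.56 and 3.07 at day 0, 1.21, 1.36 and 1.53 at day 7, 1.40, 1.30 and 1.56 at day 14 and 1.59, 1.65 and 1.62 at day 28. Graft and day 0 arrays did not overlap. It fell by 1.29 ± 0.20 at day 7, 1.24 ± 0.20 at day 14 and 1.04 ± 0.20 at day 28 (adjusted p = 0.00101, 0.001 and 0.00362). Etfb, the beta subunit, was 5.33, 5.13 and 5.38 at day 0, 4.69, 4.68 and 4.97 at day 7, 5.87, 5.74 and 5.55 at day 14 and 5.28, 4.60 and 5.63 at day 28, below day 0 at day 7, above it at day 14 and on both sides at day 28, and was not called (-0.50 ± 0.25 at day 7, 0.44 ± 0.25 at day 14 and -0.11 ± 0.25 at day 28). Etfdh, which passes the electrons on to ubiquinone, changed by -0.40 ± 0.15 at day 7, -0.04 ± 0.15 at day 14 and 0.06 ± 0.15 at day 28 and was not called.

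Of the 2 peroxisomal members 1 fell. Ehhadh, the bifunctional hydratase and dehydrogenase and a known target of PPAR alpha, was -2.63, -3.07 and -2.62 at day 0, -3.88, -3.65 and -3.85 at day 7, -3.74, -3.48 and -3.97 at day 14 and -3.42, -3.59 and -3.52 at day 28. All graft arrays lay below day 0, and it fell by 1.02 ± 0.19 at day 7, 0.96 ± 0.19 at day 14 and 0.73 ± 0.19 at day 28 (adjusted p = 0.00258, 0.00303 and 0.0139). The day 28 call was lost without day 28 replicate 2 (adjusted p = 0.0504). With the normexp background correction, which lifted the median of all probes by 0.46 at day 7, its day 7 change was 0.19. Acaa1a, the peroxisomal thiolase, has a near-identical copy in rat, Acaa1b, so its changes of 0.35 ± 0.17 at day 7, 0.37 ± 0.17 at day 14 and 0.31 ± 0.17 at day 28, not called, are uncertain.

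Among the regulators Ppara and Pdk4 fell at every day. Ppara, the gene of PPAR alpha, was -3.44, -2.58 and -2.77 at day 0, -4.34, -4.49 and -3.67 at day 7, -4.39, -4.87 and -4.59 at day 14 and -4.96, -5.00 and -4.29 at day 28. The day 0 arrays were the 3 highest. It fell by 1.24 ± 0.31 at day 7, 1.68 ± 0.31 at day 14 and 1.82 ± 0.31 at day 28 (adjusted p = 0.012, 0.00204 and 0.00187). With normexp its day 7 change was 0.22, and the calls at days 14 and 28 were lost (adjusted p = 0.437 and 0.313).

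Pdk4 encodes a kinase that shuts pyruvate dehydrogenase when fat is burned, and is another known target of PPAR alpha. It had the largest fall of the members at days 7 and 14. Its level was -3.09, -1.51 and -1.73 at day 0, -6.31, -5.70 and -7.30 at day 7, -6.90, -6.39 and -6.49 at day 14 and -4.35, -4.81 and -4.20 at day 28. It was well above background on all arrays of days 0 and 28, on 1 of day 7 and on none of day 14. The groups were far apart at days 7 and 14 and nearer at day 28. It fell by 4.33 ± 0.47 at day 7, read 22.4-fold lower at day 14 and fell by 2.35 ± 0.47 at day 28 (adjusted p = 0.000118, 7.3e-05 and 0.0041). The day 14 figure rests on readings not well above background and is not a lower limit. With normexp no day was called, with changes of -0.78, -1.75 and -1.45.

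Ucp2, an inner membrane carrier abundant in macrophages, was 0.80, 0.73 and -0.20 at day 0, 2.26, 1.78 and 2.73 at day 7, 2.19, 2.71 and 2.02 at day 14 and 1.63, 1.27 and 2.05 at day 28. All 9 graft arrays lay above day 0. It rose by 1.81 ± 0.35 at day 7, 1.86 ± 0.35 at day 14 and 1.21 ± 0.35 at day 28, or 3.51-fold, 3.64-fold and 2.31-fold (adjusted p = 0.00322, 0.00229 and 0.0233). The day 28 call was lost without day 0 replicate 3, day 28 replicate 1 or day 28 replicate 3 (adjusted p up to 0.0834). Ucp3, the carrier of skeletal muscle, was -3.87, -4.93 and -5.87 at day 0, -6.12, -6.27 and -5.47 at day 7, -3.93, -5.78 and -2.65 at day 14 and -3.86, -7.00 and -2.81 at day 28 and was not called. Ppargc1a was well above background only on day 7 replicate 1, at -5.10, and day 7 replicate 2, at -4.59, and the other 10 arrays lay between -8.79 and -7.13. Its day 7 mean read 1.86-fold above day 0, without a test. That mean takes in day 7 replicate 3, which was not well above background, so the figure is not a lower limit.

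**Figure D1:**
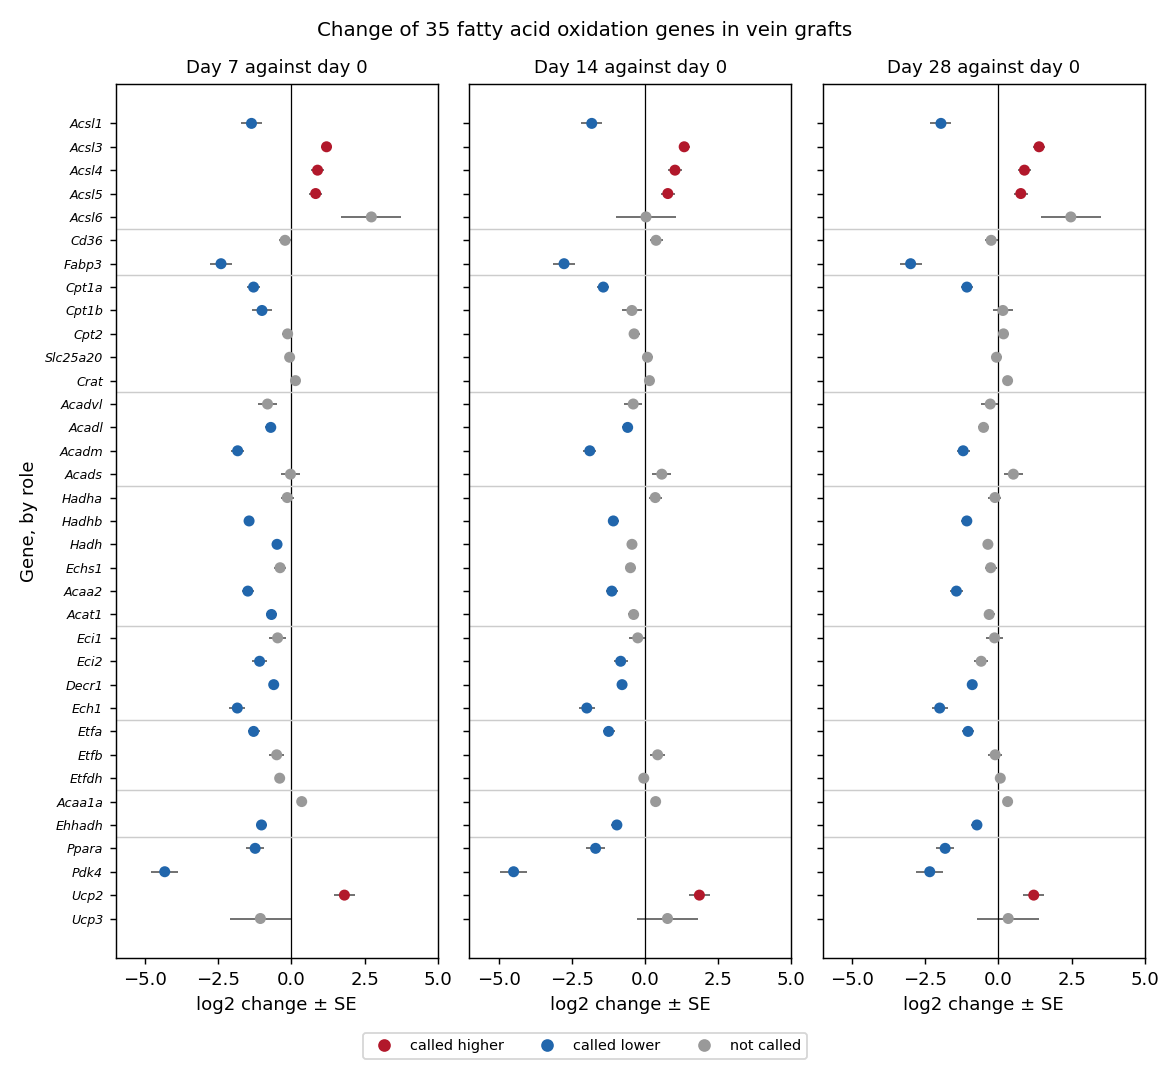
Change of each tested member at days 7, 14 and 28 against day 0 in log2 units, with bars of 1 SE and genes in rows by role (red called higher, blue called lower, grey not called). Pdk4 and Fabp3 reach furthest to the left, and Acsl3, Acsl4, Acsl5 and Ucp2 are red in all 3 panels.

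The upstream stretches of 3 genes that were called lower at every day are shown from RefSeq (GRCr8), as the 250 bases before the start: the receptor Ppara, its target Pdk4, and Etfa, whose partner Etfb was not called. Capitals, on the strand printed, mark the GC box GGGCGG, the CCAAT box and GCATGCGC, the core bound by NRF1, each read on either strand.
Ppara, chr7:118712357-118712606 (+): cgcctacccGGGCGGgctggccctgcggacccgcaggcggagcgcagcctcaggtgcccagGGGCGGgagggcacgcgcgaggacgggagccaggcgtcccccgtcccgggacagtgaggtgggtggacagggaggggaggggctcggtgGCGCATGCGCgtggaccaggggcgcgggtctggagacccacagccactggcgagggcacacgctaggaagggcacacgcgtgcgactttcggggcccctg
Pdk4, chr4:34568330-34568579 (-): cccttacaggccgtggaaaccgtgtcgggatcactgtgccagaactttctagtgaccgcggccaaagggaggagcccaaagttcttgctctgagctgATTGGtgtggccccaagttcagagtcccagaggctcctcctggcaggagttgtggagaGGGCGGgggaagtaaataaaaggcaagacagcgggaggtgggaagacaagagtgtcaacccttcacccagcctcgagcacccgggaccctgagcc
Etfa, chr8:64787966-64788215 (-): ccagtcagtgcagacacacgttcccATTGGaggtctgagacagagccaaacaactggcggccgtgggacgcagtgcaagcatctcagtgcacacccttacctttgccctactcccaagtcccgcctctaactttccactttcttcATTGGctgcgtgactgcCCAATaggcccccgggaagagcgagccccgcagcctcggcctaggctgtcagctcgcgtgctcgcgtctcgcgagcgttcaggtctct

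The Ppara window had GGGCGG at 2 places and a GCATGCGC that reads on both strands. The Pdk4 window had 1 GGGCGG and 1 CCAAT, and the Etfa window had 3 CCAAT. Promoter windows were found for 31 of the 36 members. The 250 bases before the start were searched on both strands, beside those of 33469 windows in all. AGGTCA, the site of 1 nuclear receptor, was in 4 members and 14.1% of all windows. The PPAR direct repeat, a pair of AGGTCA with any 1 base between them, was in 0 members and 0.0508%, and TNAAGGTCA, the longer site bound by ERR receptors, in 0 members and 1.04%. GGGCGG was in 20 members and 30.5%, CCAAT in 9 and 34.0%, GCATGCGC in 1 and 2.20%, and TATAAA in 3 and 12.9%. Of the 12 members called lower at every day 9 had a window, and 4 of those held GGGCGG. These matches describe letters only.

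Partner genes were set against each other in 6 pairs, as the difference of their log2 levels on each array. The pairs were chosen after the values were seen, so these shifts are a description with no test. Hadhb minus Hadha shifted by -1.23, the mean over the 9 graft arrays less the mean over the 3 day 0 arrays, and no graft array reached the day 0 range. Etfa minus Etfb shifted by -1.13, and the graft and day 0 arrays overlapped. Acsl1 shifted by -3.03 relative to Acsl3, by -2.63 relative to Acsl4 (8 graft arrays) and by -2.51 relative to Acsl5, all without overlap, although with the authors' deposited values, which hold 9 graft arrays for Acsl4, Acsl1 minus Acsl4 overlapped. Cpt1a minus Cpt1b shifted by -0.83, with overlap. All 6 shifts kept their direction under 15 alternatives (normexp, quantile normalization, the authors' deposited values and leaving out each array). For the pairs without overlap, leaving out an array could not have changed the direction, so those alternatives are no check on them.

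**Figure D2:**
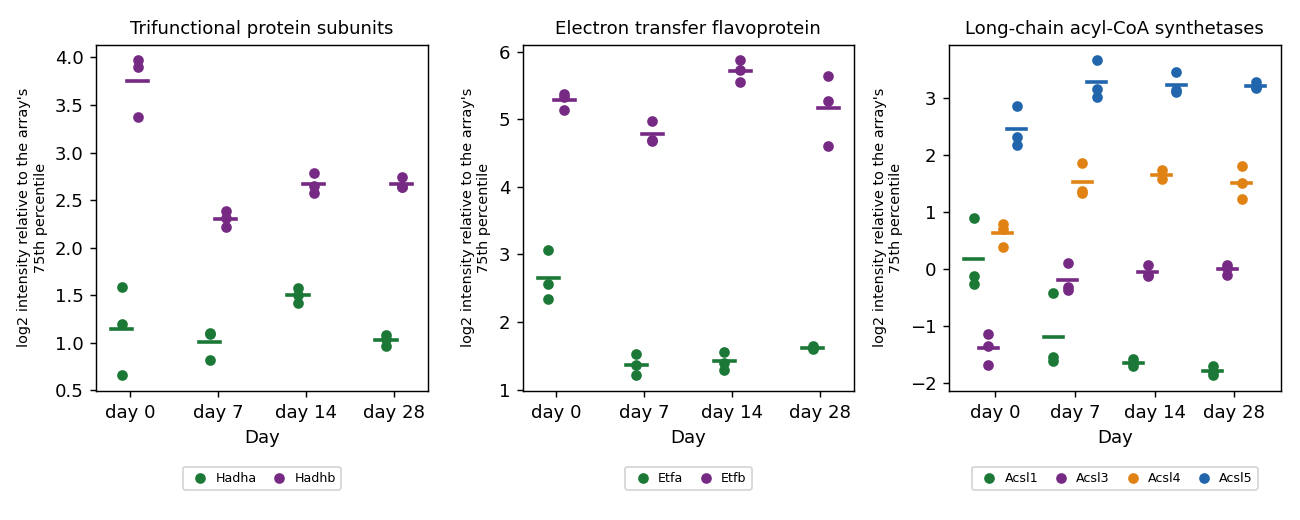
Levels of Hadha and Hadhb, of Etfa and Etfb, and of 4 long-chain acyl-CoA synthetases in log2 intensity relative to the array's 75th percentile, by day, with a point per array and a bar at the mean of a day. Hadhb and Etfa lie lower on every graft array than at day 0, and Acsl1 lies lower while Acsl3, Acsl4 and Acsl5 lie higher (heights of different probes are not comparable).

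Between graft days 1 call was made among the members, for Pdk4. Between day 14 and day 7, 0 of 35 were called (3.26% of all probes), with 5 at an unadjusted p under 0.05 (Acsl6, Cd36, Hadha, Etfb and Etfdh). The share of all probes under that unadjusted threshold was not counted for any pair of graft days. Etfb came nearest, higher at day 14 than at day 7 by 0.94 ± 0.25 (adjusted p = 0.0783), and by 1.09 within scan 2 (1 array against 3). Its arrays of the 2 days did not overlap, so the direction within scan 2 was fixed beforehand. Between day 28 and day 14 only Pdk4 was called (4.48% of all probes): it was higher at day 28 by 2.14 ± 0.47 (adjusted p = 0.0331), or 4.40-fold as read. Within scan 1 the difference was 1.86 (2 arrays against 2), and with scan as a fixed block Pdk4 was no longer called (adjusted p = 0.185). The Pdk4 arrays of days 14 and 28 did not overlap, so the direction within scan 1 was fixed beforehand too. Leaving out any 1 array of day 14 or day 28, or day 7 replicate 1, also ended the call (adjusted p up to 0.141). Between days 28 and 14 Acsl6, Cd36, Cpt2, Acadm and Pdk4 had an unadjusted p under 0.05.

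Between day 28 and day 7, 0 members were called (1.78% of all probes), and Cpt1b, Acadm, Etfdh and Pdk4 had an unadjusted p under 0.05. Acadm, the medium-chain dehydrogenase, was higher at day 28 than at day 7 by 0.63 ± 0.22 (adjusted p = 0.176) and than at day 14 by 0.68 ± 0.22 (adjusted p = 0.105). The arrays of day 28 lay above those of days 7 and 14 in both cases.

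Other genes of the pathway were taken from lists. Of 14 further genes of mitochondrial oxidation 5, 3 and 3 were called lower and 0, 1 and 2 higher at days 7, 14 and 28. For this and the following lists, 15.4%, 17.4% and 16.5% of all probes were called lower at these days and 17.7%, 20.1% and 17.4% higher, and the genes named from pathway lists are mainly those that changed most. For mitochondrial oxidation 3 of 14 called lower was near that share. Acot13, a mitochondrial thioesterase, fell by 1.33 ± 0.18 at day 7, 0.81 ± 0.18 at day 14 and 1.01 ± 0.18 at day 28 (adjusted p = 0.000399, 0.00528 and 0.00212), and Acss1, the mitochondrial acetyl-CoA synthetase, fell by 1.23 ± 0.15 at day 7, 1.03 ± 0.15 at day 14 and 1.19 ± 0.15 at day 28 (adjusted p = 0.000234, 0.000507 and 0.000378). Acsm5, a medium-chain synthetase, was at least 2.00-fold lower at day 7 (adjusted p = 0.0118) and at least 2.70-fold lower at day 28 (adjusted p = 0.00641), and its day 14 change was -0.24 ± 0.49.

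Of 14 further genes of the peroxisomal branch 5, 5 and 3 were called lower at days 7, 14 and 28 and 2 were called higher at each day, the oxidase Acox3 and the import factor Pex19. The count called higher was below the share of all probes, and 3 lower at day 28 was near it. Acox3, which acts on branched chains, was -2.52, -2.05 and -2.61 at day 0, -1.20, -1.26 and -1.27 at day 7, -0.77, -0.87 and -0.72 at day 14 and -1.17, -1.04 and -1.06 at day 28. It rose by 1.15 ± 0.17 at day 7, 1.60 ± 0.17 at day 14 and 1.30 ± 0.17 at day 28 (adjusted p = 0.000817, 8.6e-05 and 0.000518). Abcd2, a peroxisomal carrier of very long chains, fell by 3.69 ± 0.39 at day 7, 2.07 ± 0.39 at day 14 and 1.72 ± 0.39 at day 28 (adjusted p = 0.000106, 0.00238 and 0.00786). Acaa1b, the copy of Acaa1a, was at least 2.99-fold lower at day 28 (adjusted p = 0.0365). As the copies are near-identical, this change is as uncertain as those of Acaa1a.

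Of 12 genes that supply fatty acids 5, 6 and 6 were called lower and 1 higher at each day. The hormone-sensitive lipase Lipe fell by 2.91 ± 0.32 at day 7, 2.32 ± 0.32 at day 14 and 1.24 ± 0.32 at day 28 (adjusted p = 0.000123, 0.000359 and 0.0138), the fatty acid transport protein Slc27a3 fell by 1.35 ± 0.40 at day 7, 2.45 ± 0.40 at day 14 and 1.22 ± 0.40 at day 28 (adjusted p = 0.0265, 0.00105 and 0.0395) and the fat cell carrier Fabp4 fell by 1.98 ± 0.25 at day 7, 1.73 ± 0.25 at day 14 and 1.52 ± 0.25 at day 28 (adjusted p = 0.000258, 0.000429 and 0.00143). The gene that was higher was Abhd5, an activator of fat lipolysis.

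Of 13 receptors, coactivators, targets and kinases that act around PPAR alpha 5, 4 and 4 were called lower and 2, 2 and 1 higher. Rxra, the partner receptor of PPAR alpha, fell by 3.26 ± 0.69 at day 7, 2.84 ± 0.62 at day 14 and 3.85 ± 0.62 at day 28 (adjusted p = 0.00616, 0.00599 and 0.00176), with 1 day 7 array missing. Prkaa2, a catalytic subunit of the energy sensor AMPK, fell by 3.85 ± 0.53 at day 7, 4.26 ± 0.53 at day 14 and 2.56 ± 0.53 at day 28 (adjusted p = 0.000485, 0.000202 and 0.005). Sirt3, a mitochondrial deacetylase, fell by 1.39 ± 0.21 at day 7, 1.75 ± 0.21 at day 14 and 1.21 ± 0.21 at day 28 (adjusted p = 0.000757, 0.000153 and 0.00194). In the citric acid cycle and pyruvate dehydrogenase 9, 8 and 5 of 18 genes were called lower and 0, 2 and 2 higher. Sucla2, a subunit of succinyl-CoA ligase, changed by -1.32 ± 0.42 at day 7, -1.77 ± 0.42 at day 14 and -0.90 ± 0.42 at day 28 (adjusted p = 0.0336, 0.00767 and 0.121). Pdha1 and Pdhb, subunits of pyruvate dehydrogenase, were called lower at days 7 and 14, with day 7 changes of -1.39 and -1.41.

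Cell type markers moved on the same arrays, and in bulk tissue fewer cells of a type and less RNA per cell cannot be told apart. Of 7 adipocyte markers 5, 6 and 5 were called lower and none higher. Their summed intensity, in multiples of the array's 75th percentile, was 24.1 to 90.8 at day 0, 4.4 to 8.29 at day 7, 13.1 to 21 at day 14 and 7.9 to 10.2 at day 28. All graft sums lay below all day 0 sums. Retn, a fat cell hormone, fell by 6.89 ± 0.48 at day 7, 7.45 ± 0.48 at day 14 and 6.24 ± 0.48 at day 28, and Pck1, which feeds glycerol synthesis in fat, fell by 4.92 ± 0.43 at day 7, 3.61 ± 0.43 at day 14 and 5.44 ± 0.43 at day 28, while Cfd, the complement factor adipsin, changed by -1.32 ± 0.68 at day 7, 0.18 ± 0.68 at day 14 and -0.71 ± 0.68 at day 28 and was not called. The brown fat markers summed to 4.64 to 5.1 at day 0, 1.3 to 1.52 at day 7, 1.11 to 1.33 at day 14 and 0.985 to 1.18 at day 28, 1, 2 and 2 of 3 tested were called lower, and Ucp1, which defines brown fat, was above background on no array.

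Of 7 smooth muscle markers 7, 7 and 6 were called lower, and their sum was 719 to 1234 at day 0, 162 to 226 at day 7, 116 to 167 at day 14 and 200 to 234 at day 28. Tagln, an actin-binding protein, fell by 1.67 ± 0.35 at day 7, 1.98 ± 0.35 at day 14 and 1.33 ± 0.35 at day 28, and desmin, Des, fell by 3.67 ± 0.28 at day 7, 3.21 ± 0.28 at day 14 and 2.62 ± 0.28 at day 28. The endothelial sum was 45.4 to 58.7 at day 0, 7.08 to 11 at day 7, 12.4 to 14.3 at day 14 and 17 to 32.1 at day 28, with 4, 4 and 2 of 6 called lower and 0, 0 and 1 higher. Of 5 tested cardiac markers 4, 3 and 3 were lower and 1 higher at each day, with sums of 23.6 to 106 at day 0, 7.79 to 16.8 at day 7, 20.2 to 22 at day 14 and 12.2 to 27.1 at day 28, and Myl7 was above background on no array. Veins near the heart are known to carry cardiac muscle, and Fabp3 is abundant in that tissue. Whether the veins sampled here carried it is not given, and a part of it in the fall of Fabp3 was not tested.

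Of 11 macrophage markers 9, 10 and 8 were called higher and none lower, and their sum was 16.6 to 75.8 at day 0, 375 to 778 at day 7, 572 to 612 at day 14 and 369 to 450 at day 28. Spp1 rose by 7.35 ± 0.29 at day 7, 6.99 ± 0.29 at day 14 and 6.89 ± 0.29 at day 28 and Gpnmb rose by 3.70 ± 0.54 at day 7, 4.24 ± 0.54 at day 14 and 3.87 ± 0.54 at day 28, beside the rise of Ucp2. Of 5 red cell markers 4, 2 and 3 were higher, with sums of 93.3 to 230 at day 0, 279 to 456 at day 7, 132 to 227 at day 14 and 221 to 256 at day 28. Of 6 hepatocyte markers, a check on tissue rich in Ehhadh, 1, 4 and 0 were higher and 2, 0 and 2 lower. Their sum was 0.813 to 1.53 at day 0, 1.84 to 2.72 at day 7, 4.22 to 18.9 at day 14 and 0.634 to 0.694 at day 28, and Tat was above background on no array. The part of any of these cell types in the members' changes was not tested.

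Skeletal muscle markers set arrays of the same day apart. None of 12 was called at day 7, 5 were called higher at day 14 and 11 at day 28, and none was lower. The median level of the 12 was -2.04, -2.07 and -1.67 at day 0, 0.05, 0.20 and -1.09 at day 7, 2.10, -1.20 and 2.72 at day 14, and 5.01, 2.03 and 6.01 at day 28. Their summed intensity was 16.7 to 19.5 at day 0, 15.5 to 31.7 at day 7, 17.2 to 106 at day 14 and 67.7 to 972 at day 28. At days 14 and 28 replicate 2 was the lowest of the 3 arrays and replicate 3 the highest, and the same order held there for Cpt1b and Ucp3, the muscle-type members. The order was not particular to them, as Acsl6 and Hadhb had it on both days as well. At day 0 replicate 3 was highest for the markers but lowest for Cpt1b and Ucp3. At day 7 replicate 3 was lowest for the markers and Cpt1b but highest for Ucp3. Cpt1b was -1.72, -2.13 and -1.45 at day 14 and -1.17, -1.84 and -0.49 at day 28. Ucp3 was -3.93, -5.78 and -2.65 at day 14 and -3.86, -7.00 and -2.81 at day 28. Whether muscle in the samples set these values was not tested.

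**Figure D3:**
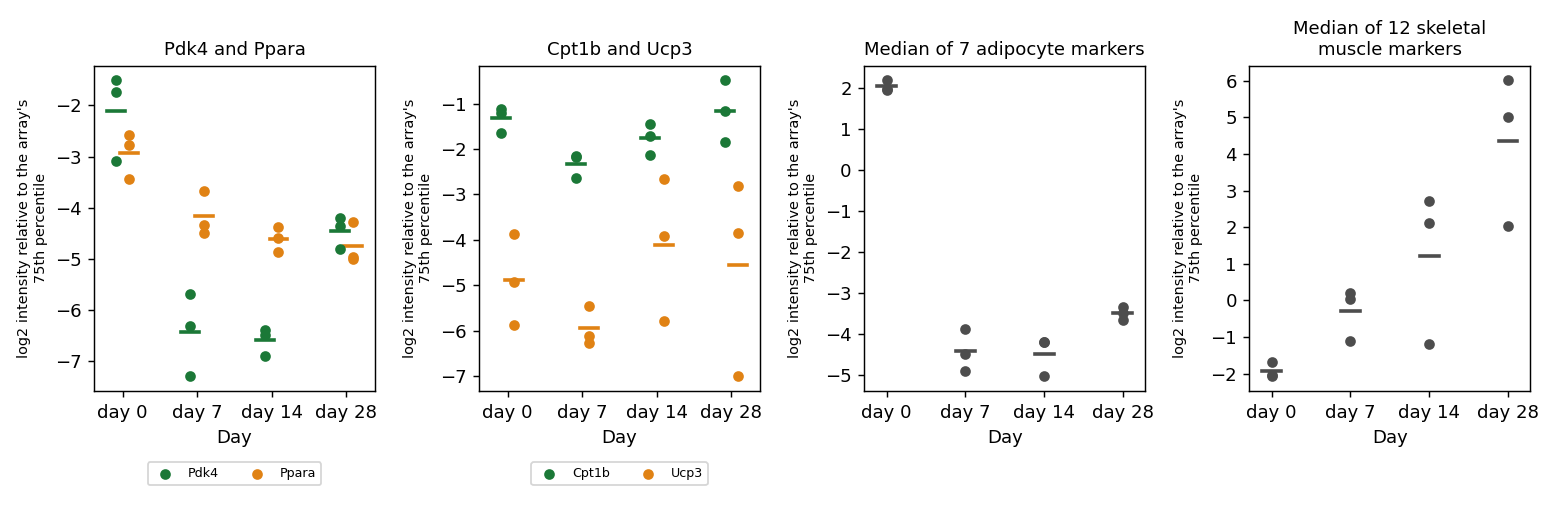
Levels of Pdk4 and Ppara, of Cpt1b and Ucp3, and the median level of 7 adipocyte and of 12 skeletal muscle markers, in log2 intensity relative to the array's 75th percentile, by day, with a point per array and a bar at the mean of a day. Pdk4 and Ppara are highest at day 0, the adipocyte median falls below -3 on all graft arrays, and the skeletal muscle median reaches 6.01 on 1 array of day 28.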

How the data were processed

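RNA from 12 vein samples was hybridised to single-colour Agilent arrays. The deposited scanner tables give a linear intensity per spot, from which Agilent Feature Extraction 11.0.1.1 had removed background, per the file headers. A processed table that the authors deposited matches log2 intensities (medians 7.149 to 7.153, r with its own array's scanner values at least 0.998), whose normalization is not given in the sources used here. It served as an alternative.

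Control spots (1417 per array) and outlier spots (7348 in all) were left out. The main value was log2 processed intensity minus the array's 75th percentile. Probes well above background on at least 3 arrays were tested (21063) with limma 3.58.1 in R 4.3.3, all 12 arrays in 1 fit with empirical Bayes moderation and Benjamini-Hochberg adjustment. The fit was tested on simulated data. Probes were named by matching RefSeq accessions to a RefSeq gene table (14294 of 24684 with 1 symbol, 10390 unnamed). Where no array of a day read a probe well above background, its change is only a bound, "at least N-fold", set against the higher of its own value and the array's lowest value among probes well above background. For Pdk4 at day 14 its own value was the higher on every array, so the measured fold is printed instead.

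Alternatives were normexp (offset 50, on median signal and background), quantile and median scaling, other filters, scan as a fixed or random block (consensus correlation 0.169), array weights, and leaving out arrays. Scans were read from scan times in the file headers. The members and lists were chosen with earlier results of these data known. All members are accounted for, and some genes of the pathway lists are not reported here. Genes named from pathway lists were up to 3 called genes with the largest change, and from marker lists up to 3 of the highest mean level, and Pex19, Abhd5, Pdhb and the 6 pairs were named after their values were seen. Promoter windows were searched and plots drawn in Python 3.11.15.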

Additional observations from a re-analysis of the deposited data

Results flagged for a closer look

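Pdk4 stood out because 2 graft days differed from each other by a test: it was 2.14 ± 0.47 log2 units higher at day 28 than at day 14 (limma, adjusted p = 0.0331), on 3 of 3 arrays. The call was lost under 10 of 24 alternatives, and the adjusted p over all of them ran from 6.6e-08 to 0.978. The change itself ran from 0.30 to 2.47. Day 14 replicates were not well above background, so the day 14 level, and with it the size of the change, is uncertain.

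Ppargc1a stood out because a signal appeared in a probe that was too dim to be tested: it was well above background on 2 of 3 day 7 arrays and on 0 of 3 day 0 arrays. Day 7 replicate 3, the array with 393 non-uniform spots, did not show it.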

How the results depend on the processing

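No paired analysis was possible because the labels give every array the same replicate number, so numbers 1 to 3 name arrays and pair nothing. Settings that moved a count of called members by more than 1.5 times are given here. With scan as a fixed block, members called higher and lower were 0 and 0 at day 7, 0 and 1 at day 14 and 0 and 3 at day 28 against day 0, the F test called 0, and Pdk4 was not called between days 28 and 14 (0 higher). With day 0 replicate 3, scanned alone, joined to scan 3, an alternative added after seeing the data, the counts were 0 and 0, 0 and 0, and 1 and 4, the F test called 0, and 0 were higher at day 28 than at day 14. That joined fit called 0.19%, 4.2% and 6.72% of all probes at days 7, 14 and 28. With normexp the counts were 2 and 9 at day 7, 2 and 9 at day 14 and 1 higher at day 28, the F test called 11, and 0 were higher at day 28 than at day 14. Normexp called 14.5%, 16.6% and 12.1% of all probes, in either direction, at days 7, 14 and 28. Ehhadh and Ppara changed sign at day 7 under normexp, to 0.19 and 0.22. Normexp moved the median of all probes by 0.46 at day 7 and -0.17 at day 28, and median scaling moved it by 0.10 at day 28. At day 28 against day 7 these moves were -0.50 and 0.15. A fit of only the arrays compared gave 2 higher and 9 lower at day 7, 2 higher at day 28, 1 higher at day 14 than day 7, and 4 higher and 2 lower at day 28 than day 14. In these 4 comparisons it called 13.7%, 22.0%, 3.79% and 30.2% of all probes, in either direction. The causes were not tested.

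Between graft days, 1 member was called higher at day 14 than day 7 with quantile normalization and with the authors' deposited values, and 1 lower with no filter on dim probes. These fits called 3.98%, 3.86% and 2.85% of all probes. At day 28 against day 7, 1 was higher with quantile normalization, median scaling and the authors' values, beside 2.09%, 2.3% and 2.04% of all probes called. The filter for all 12 arrays, which removes Pdk4, left 0 higher at day 28 than day 14. Array quality weights called 14 higher and 4 lower (day 14 against 7), 14 and 8 (day 28 against 14) and 20 and 5 (day 28 against 7), beside 50.7%, 78.0% and 63.8% of all probes called by that fit. Without the 2 arrays with many non-uniform spots 2 were higher at day 14 than day 7, and 3 higher and 2 lower at day 28 than day 14, beside 11.5% and 22.8% of all probes called. Leaving out each array in turn gave 3 to 5 higher and 12 to 19 lower at day 7, 2 to 4 and 12 to 15 at day 14, and 1 to 4 and 11 to 14 at day 28. Of all probes 23.8% to 37.4%, 27.2% to 42.2% and 21.7% to 39.9% were called at these days, in either direction. Leaving out arrays gave 0 to 1 higher and 0 lower at day 14 against day 7, 0 to 2 and 0 to 1 at day 28 against day 14, 0 to 1 and 0 at day 28 against day 7, and 14 to 20 by the F test. The shares of all probes called between these graft days were 1.07% to 6.0%, 0.774% to 10.8% and 0.161% to 3.05%. The lowest count higher at day 14 came without day 14 replicate 3, and the lowest at day 28 without day 28 replicate 1 or replicate 3. Dim signal limits Pdk4, Ppargc1a, Acsl6 and Ucp3, and 3 arrays per day limit the precision.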
